A study of Mus musculus with 6 samples.

Results

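Potassium channel genes were taken as the 91 genes whose symbol begins with Kcn, goes on with lower-case letters and ends in a number, with Kcnj8 left out. They are 91 of the 41605 genes in the count tables. Of these, 40 had 50 or more unique molecular identifiers (UMIs, each standing for 1 captured RNA molecule) in Schwann, perineurial, endothelial, mural and immune cells together, and these 40 are described, by count or by value. The other 51 had fewer, 5 of them none at all. The lowest of the 40 was Kcns1 with 50 UMIs, and the highest of those below had 45. Cells came from sciatic nerves of C57bl/6J mice carrying P0Cre(-/+): ReYFP(Tg/+): βAct-DsRed(Tg/+), with 3 libraries from P1 and 3 from P60 (day 1 and day 60 after birth). All animals of both ages carried all 3 transgenes: DsRed under the beta-actin promoter, and an eYFP reporter switched on by Cre under the promoter of myelin protein zero, which acts in Schwann cells. Each library pooled male and female mice at 1:1, so no single animal can be followed. DsRed+ cells were sorted, and at P1 a part of the cells that were also eYFP+ was removed to limit the share of Schwann cells, so the P1 share was set by the sort. For P60 the paper states that the number of Schwann cells depended on how well they were extracted. It adds that Schwann cells taken from heavily myelinated nerves might not show their whole diversity.

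Potassium channels let potassium cross the membrane and so set a cell's resting voltage and end its electrical signals. Voltage-gated channels open when the cell is depolarised, inward rectifiers pass potassium best near rest and can take it up from the surroundings, tandem-pore channels are leaks, and a further group opens with internal calcium or sodium. Auxiliary and silent subunits form no working pore alone and change the pores they join. In nerve, axons release potassium as they fire, Schwann cells lie around them, perineurial cells and endothelium close off the space in which it collects, and vascular smooth muscle uses potassium channels to set vessel width. By these roles the 91 genes were 30 voltage-gated pore subunits (14 described), 14 inward rectifiers (4 described) and 14 tandem-pore channels (7 described). The others were 8 in the families of calcium- or sodium-gated channels (5 described), 10 silent subunits (2 described) and 15 auxiliary subunits (8 described). The groups follow the gene symbols, and the gating of each member, such as Kcnu1, was not checked.

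The 6 libraries held 20092957 to 29371559 UMIs in cells with 500 to 5000 genes. P60 replicate 3 stood apart: it was the shallowest, 16.2% of its cells had more than 10% mitochondrial UMIs against 2.97% and 4.84% in the other P60 libraries, and it gave 307 of the 528 vascular smooth muscle cells and 126 of the 215 not-myelinating-side Schwann cells of P60. Each age change was therefore also fitted without it. Cells were clustered without the potassium channel genes and put into 7 classes by marker genes, and each class name stands for cells like that class. Clusters that matched no class or held endothelial and mural markers together were left out. Schwann cells numbered 3127 at P1 and 367 at P60, endoneurial fibroblasts 1301 and 862, epineurial fibroblasts 1316 and 4537, perineurial cells 860 and 2364, endothelial cells 628 and 1713, mural cells (pericytes and vascular smooth muscle) 540 and 714, and immune cells 939 and 1270. The P1 perineurial class carried little of several perineurial markers: Itgb4 was at 15.7 CPM there against 878 CPM at P60, and Msln at 11.8 against 793 CPM, while Cldn1 was at 234 and 576 CPM. Levels are in CPM, the usual depth-scaled unit, here the UMIs of a gene divided by all UMIs of that class in the same library. Library pairs shared 14 to 33 cell barcodes.

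The classes with the highest level differed among the 40 genes. At P1 the class with the highest level was Schwann for 12 genes, mural for 7, perineurial for 7, endothelial for 5, immune for 5, endoneurial for 3 and epineurial for 1. At P60 it was Schwann for 10, mural for 10, immune for 7, perineurial for 5, endoneurial for 4, epineurial for 2 and endothelial for none. Kcnb2 and Kcns1 were at 0 in all 7 classes at P60, and of the other 38 genes 25 had the same top class at both ages. The limit of 50 UMIs did not count endoneurial and epineurial cells, so genes found mainly there could be left out, and the tally is not a ranking of the classes. Levels between classes are a description, and no test was made of them.

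**Figure D1:**
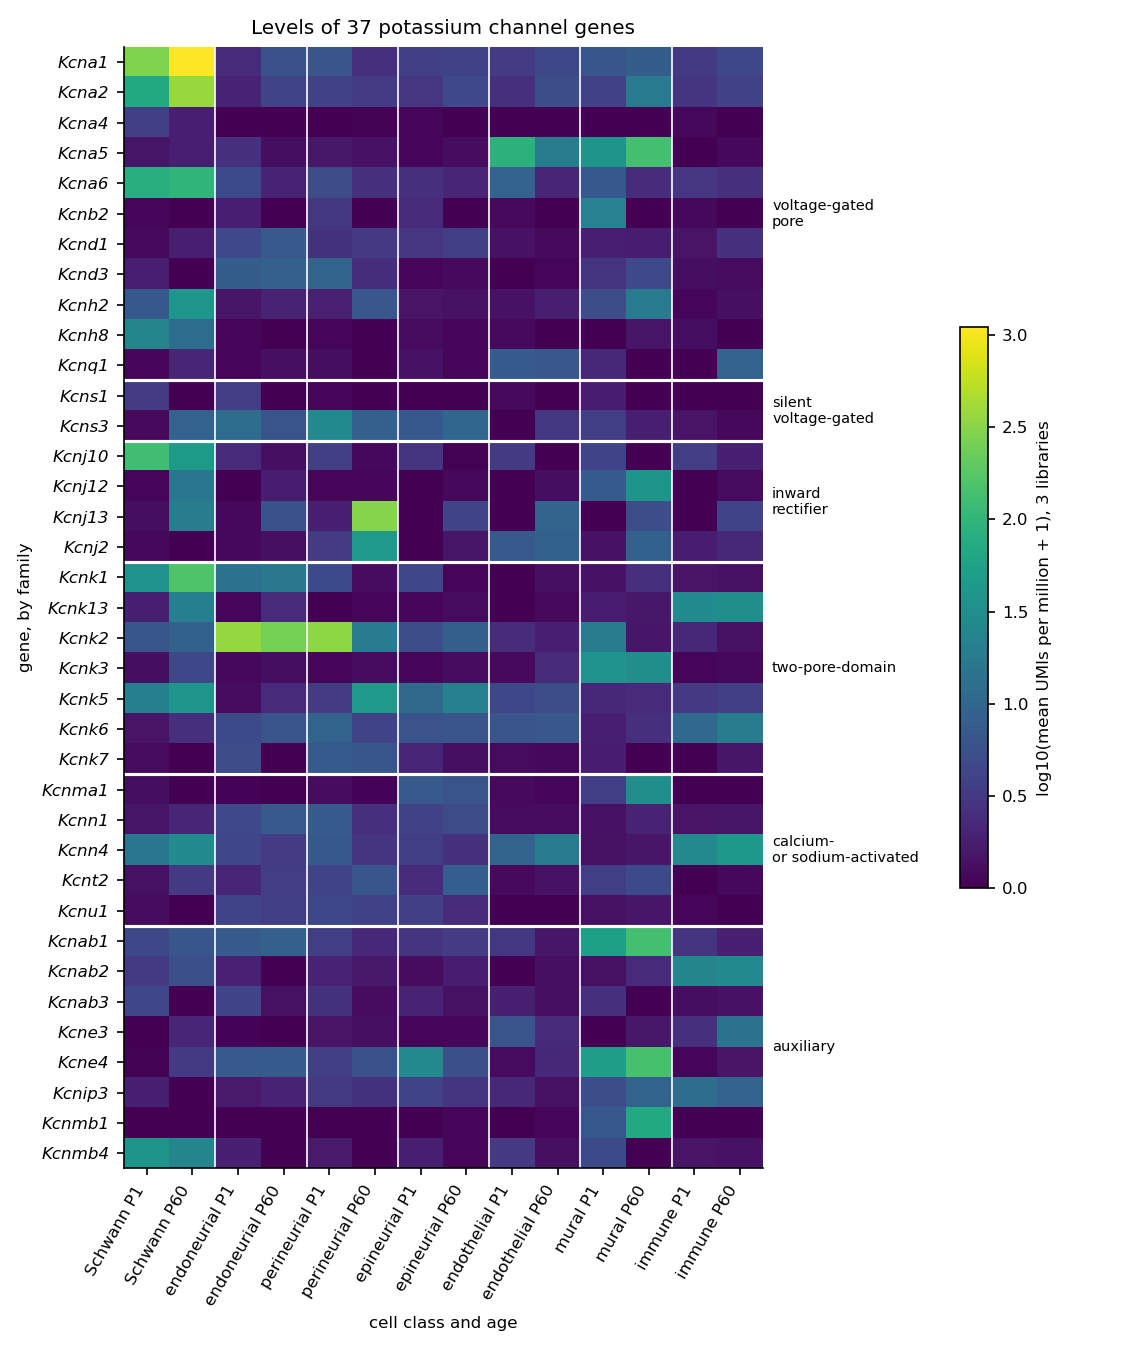
Mean level of 37 of the 40 described potassium channel genes (rows, by family) in 7 cell classes at P1 and at P60 (columns), as log10 of mean CPM with 1 added, over 3 libraries per age. Kcna1 is high in Schwann cells at both ages, Kcnk2 in endoneurial cells at both ages and in perineurial cells at P1, and Kcnj13 in perineurial cells at P60.

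The DNA just before the transcription start is shown for 4 genes on whose age changes the sections below turn: Kcnk1 of Schwann cells, Kcnj13 of perineurial cells, Kcnmb1 of mural cells, and Kcna5, which moved in opposite directions in endothelial and mural cells. Each run gives the 250 bases before the RefSeq start, 5′ to 3′ on the strand of the gene, in build GRCm38.p6. They lie at chr8:125994852-125995101 (plus strand) for Kcnk1, chr1:87394730-87394979 (minus strand) for Kcnj13, chr11:33962763-33963012 (plus strand) for Kcnmb1 and chr6:126535556-126535805 (minus strand) for Kcna5. Capitals mark matches, on either strand, to the TEAD core GGAATG or the SOX core ACAAAG, and the SRF CArG box was searched as well.
Kcnk1: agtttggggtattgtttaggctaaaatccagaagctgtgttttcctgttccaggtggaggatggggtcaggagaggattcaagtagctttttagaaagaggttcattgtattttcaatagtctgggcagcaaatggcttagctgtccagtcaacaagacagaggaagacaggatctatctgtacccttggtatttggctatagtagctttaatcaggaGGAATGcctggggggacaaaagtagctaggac
Kcnj13: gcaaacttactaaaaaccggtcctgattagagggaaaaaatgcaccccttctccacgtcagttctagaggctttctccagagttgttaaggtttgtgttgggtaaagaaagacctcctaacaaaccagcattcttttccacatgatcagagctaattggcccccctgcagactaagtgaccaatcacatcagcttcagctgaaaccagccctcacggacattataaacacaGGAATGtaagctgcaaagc
Kcnmb1: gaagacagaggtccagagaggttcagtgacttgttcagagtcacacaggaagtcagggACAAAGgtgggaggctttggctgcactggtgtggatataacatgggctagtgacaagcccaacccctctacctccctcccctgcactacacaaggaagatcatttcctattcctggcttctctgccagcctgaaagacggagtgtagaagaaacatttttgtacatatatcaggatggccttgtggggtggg
Kcna5: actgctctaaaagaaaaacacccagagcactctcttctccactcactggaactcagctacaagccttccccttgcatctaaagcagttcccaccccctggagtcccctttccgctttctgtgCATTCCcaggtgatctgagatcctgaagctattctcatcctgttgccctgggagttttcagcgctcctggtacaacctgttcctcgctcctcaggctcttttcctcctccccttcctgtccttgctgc
The TEAD core was found at bases -32 to -27 before the start of Kcnk1, at -19 to -14 before that of Kcnj13 and, read on the other strand, at -128 to -123 before that of Kcna5. The SOX core lay at -192 to -187 in Kcnmb1, and the letters of the CArG box were not in these 4 windows. Of 32851 windows of the same length before RefSeq genes, 12.6% held the TEAD core, 16.5% the SOX core and 1.47% the CArG box.

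In Schwann cells, the voltage-gated subunits Kcna1 and Kcna2, which hold the membrane near rest, and the leak channel Kcnk1 were higher at P60, and the inward rectifier Kcnj10, which in glia takes up potassium, was lower. Of 18 potassium channel genes tested between the ages in Schwann cells, 10 were called at an edgeR adjusted p under 0.05, 6 higher and 4 lower at P60. Of all 11304 genes tested there, 40.2% were called, 18.4% higher and 21.8% lower. The median change of the 18 was 0.61 on the log2 scale against -0.08 over all genes. With library size alone as the scale, which moved the median of all Schwann genes by 0.18, the split was 8 higher and 1 lower, and with DESeq2 it was 8 and 3.

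Kcna1 was at 283, 292 and 272 CPM in replicates 1, 2 and 3 at P1 and at 829, 858 and 1619 CPM at P60. All P60 values lay above those of P1, and replicate 3 was the highest. The log2 change was 1.82 ± 0.21 (SE, edgeR adjusted p = 7.33e-06), and 1.45 without P60 replicate 3. With every cell thinned to 1500 UMIs, 31.2% of P1 and 72.9% of P60 Schwann cells had a Kcna1 UMI, against 0.106% and 0.317% of immune cells. Unthinned, the shares in Schwann cells were 65.9% and 85.6%, at median depths by library of 5575 to 6206 and 1883 to 2676 UMIs.

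Kcna2, whose product can join that of Kcna1 in mixed channels, was at 69.0, 70.4 and 70.6 CPM at P1 and at 202, 251 and 658 CPM at P60. Its log2 change was 2.35 ± 0.28 (edgeR adjusted p = 9.55e-06), and 1.57 without P60 replicate 3, its highest library. Kcna6, of the same family, was at 87.8, 76.7 and 73.3 CPM at P1 and at 89.5, 67.0 and 135 CPM at P60. These ranges overlap, and the log2 change was 0.20 ± 0.21 (edgeR adjusted p = 0.471).

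Kcnj10 was at 122, 126 and 131 CPM at P1 and at 46.7, 57.0 and 28.0 CPM at P60. All P60 libraries lay below the P1 libraries, with a log2 change of -1.76 ± 0.20 (edgeR adjusted p = 7.48e-06). Kcnj12, also an inward rectifier, had 2 UMIs in P1 and 15 in P60 Schwann cells, or 0.168, 0 and 0.143 CPM against 11.7, 13.4 and 18.7 CPM. The ratio of the pooled levels was 150 (counting interval 34.8 to 1349).

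Among the leak channels, Kcnk1 was at 34.8, 34.5 and 33.2 CPM at P1 and at 214, 147 and 117 CPM at P60 (log2 change 1.99 ± 0.19, edgeR adjusted p = 1.09e-06). Kcnk13, known from microglia, was at 0.838, 0.751 and 0.998 CPM at P1 and at 23.3, 23.5 and 11.7 CPM at P60 (4.19 ± 0.52, edgeR adjusted p = 1.66e-05), from 17 and 18 UMIs. In P60 Schwann cells Kcnk13 stood at 63.6% of its immune level, where the 10 immune markers were at a median of 1.39% of theirs (0.185% to 2.05%). Kcnj12 stood at 39.6% of its mural level, where the 9 mural markers were at a median of 0.917% (0.167% to 30.2%). The part of immune and mural RNA in these Schwann values was not tested. Kcnk5, a leak channel opened by alkaline pH, was at 17.9, 21.8 and 19.7 CPM at P1 and at 50.6, 33.5 and 28.0 CPM at P60, without overlap but not past the threshold (0.68 ± 0.28, edgeR adjusted p = 0.0691).

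Kcnh2, the voltage-gated subunit of the rapid repolarising current of the heart, was at 6.199, 6.61 and 4.70 CPM at P1 and at 54.5, 30.2 and 30.3 CPM at P60 (2.48 ± 0.35, edgeR adjusted p = 5.01e-05). Its relative Kcnh8 was at 26.1, 22.7 and 20.1 CPM against 11.7, 6.70 and 13.99 CPM (-1.20 ± 0.40, edgeR adjusted p = 0.0278), and with cells thinned to 1500 UMIs the call was lost (edgeR adjusted p = 0.131). Kcnmb4, an auxiliary subunit of the large-conductance calcium-gated channel, was at 39.7, 33.0 and 38.1 CPM against 38.9, 13.4 and 18.7 CPM, ranges that overlap (-0.89 ± 0.32, edgeR adjusted p = 0.037). The auxiliary subunit Kcnab3 had 68 UMIs at P1, 27 of them in proliferating cells, and none at P60, which is at least 1.14-fold lower against a floor of 3 counts over the group. The calls of Kcnh8 and Kcnab3 were lost when any 1 of the P60 libraries was left out, and that of Kcnmb4 when any library other than P60 replicate 1 was left out. All 3 calls were also lost with library size alone as the scale, at edgeR adjusted p = 0.0605, 0.0514 and 0.0994 for Kcnh8, Kcnab3 and Kcnmb4. Kcnn4, a calcium-gated channel, was at 15.9, 13.97 and 13.68 CPM at P1 and at 38.9, 23.5 and 23.3 CPM at P60, without overlap (0.76 ± 0.31, edgeR adjusted p = 0.0637).

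The Schwann classes of the ages were mixed differently. P1 held 914 cells on the not-myelinating side, 756 on the myelinating side, 340 proliferating cells and 1117 cells between, and P60 held 215 and 152 cells on the not-myelinating and myelinating sides. Kcnk1 on the myelinating side was at 120, 118 and 109 CPM at P1 and at 353, 304 and 291 CPM at P60. It had 587 of its 671 P1 UMIs and 147 of its 149 P60 UMIs there. Kcna6 was on the other side, at 168, 159 and 153 CPM at P1 and at 197, 117 and 226 CPM at P60 in not-myelinating cells, against 29.4, 25.3 and 18.5 CPM and 13.3, 13.8 and 0 CPM in myelinating cells. Kcnk13 had 17 of its 18 and Kcnj12 13 of its 15 P60 UMIs on the not-myelinating side.

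When each side was compared with itself, 5 of 7 genes tested on the myelinating side were called, against 24.8% of all genes. Kcnk1 (log2 change 1.47), Kcna1 (1.79), Kcna2 (0.80) and Kcnk5 (1.64) were higher at P60 there and Kcnj10 (-1.43) was lower. On the not-myelinating side 7 of 11 were called, against 31.9% of all genes. Kcna2 (3.19), Kcna1 (2.76), Kcnh2 (3.11) and Kcnk13 (4.05) were higher there, and Kcnj10 (-1.85), Kcnmb4 (-2.16) and Kcnh8 (-1.42) were lower. Kcnmb4 on the myelinating side was at 19.0, 17.97 and 20.8 CPM at P1 and at 39.9, 20.8 and 29.1 CPM at P60 (0.66, edgeR adjusted p = 0.283). Kcnj10 was uneven within the myelinating side of P60, with 33 UMIs (141, 137 and 111 CPM) in the 90 cells of the sub-cluster led by Emid1 and none in the 62 cells of that led by Spp1. Kcnj10 is itself among the leading genes of the first.

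**Figure D2:**
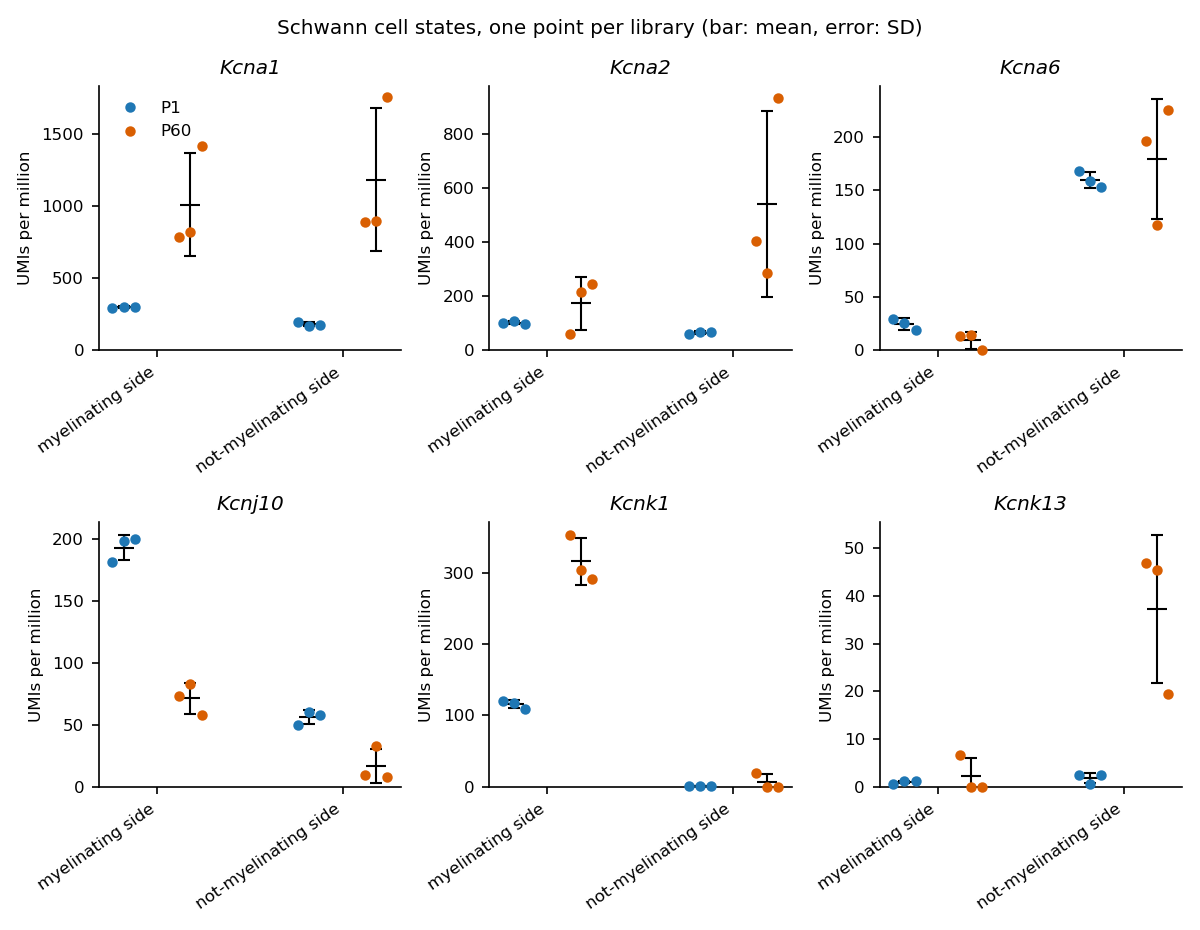
Levels of 6 potassium channel genes on the myelinating and not-myelinating sides of Schwann cells at P1 and P60, in CPM, with a point for each library and the mean and SD of 3 libraries. Kcnk1 lies high on the myelinating side at both ages, Kcna6 on the not-myelinating side, and Kcna1 lies higher at P60 than at P1 on both sides.

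In endoneurial fibroblasts the leak channel Kcnk2, which is opened by stretch and by lipids, was at 345, 393 and 352 CPM at P1 and at 252, 248 and 267 CPM at P60, and the ages did not overlap. The log2 change was -0.43 ± 0.11 (edgeR adjusted p = 0.00591), and with cells thinned to 1500 UMIs it was -0.35 (edgeR adjusted p = 0.0692). The share of thinned cells with a Kcnk2 UMI was 38.2% at P1 and 31.4% at P60, against 0.213% and 0% of immune cells. Unthinned it was 89.9% and 53.8%, at median depths by library of 8928.5 to 9887 and 2465 to 3807.5 UMIs. Of 10 members tested, 3 were called, 1 higher and 2 lower (1 and 1 by DESeq2), against 46.1% of all 10714 genes, 23.7% higher and 22.4% lower. Kcns3, a silent subunit, was at 10.8, 9.33 and 12.1 CPM at P1 and at 2.65, 5.34 and 7.30 CPM at P60 (-1.04 ± 0.36, edgeR adjusted p = 0.0284), a call lost without P1 replicate 1 or 3 or P60 replicate 1 or 2. Kcnt1, a sodium-gated channel below the limit of 50 UMIs, went from 0 UMIs to 25, which makes P60 at least 33.9-fold higher. Kcnk1 was at 12.1, 14.4 and 12.8 CPM against 15.9, 19.2 and 11.5 CPM (0.33 ± 0.25, edgeR adjusted p = 0.304).

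Epineurial fibroblasts held the potassium channel genes at low levels. Of 19 members tested there, 7 were called, 4 higher and 3 lower, against 43.8% of all 11907 genes, 23.1% higher and 20.7% lower. The auxiliary subunit Kcne4 was at 23.1, 30.7 and 23.5 CPM at P1 and at 5.05, 4.63 and 3.80 CPM at P60 (-2.56 ± 0.20, edgeR adjusted p = 2.82e-06). Kcnk1 had 28 UMIs in the P1 libraries and 3 in the P60 libraries, and the ratio of levels was 26.9 (counting interval 8.30 to 138).

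Kcnk5 was higher at P60 in epineurial cells, at 9.47, 11.5 and 9.85 CPM against 19.5, 22.5 and 20.1 CPM (0.95 ± 0.17, edgeR adjusted p = 0.00113). So was the sodium-gated Kcnt2, at 2.88, 0.349 and 0.953 CPM against 7.18, 5.84 and 8.39 CPM (2.35 ± 0.45, edgeR adjusted p = 0.00173), with a log2 change of 3.33 when P1 replicate 1, its highest P1 library, was left out. Kcnk5 was uneven at P60, with 36.3 CPM in the 1325 cells led by Dact2 and 4.30 CPM in the 616 cells led by Hp, of which 23 and 17 cells came from P60 replicate 3. Kcnk2 was at 2.88, 5.94 and 3.81 CPM against 7.97, 8.04 and 6.33 CPM (0.76 ± 0.28, edgeR adjusted p = 0.0485), a call lost without P1 replicate 1 or 3 or P60 replicate 1 or 2, and with DESeq2 (DESeq2 adjusted p = 0.132). Kcnj13 went from 0 UMIs to 77, which makes P60 at least 8.91-fold higher. At P60 it stood in epineurial cells at 1.03% of its perineurial level, and the 9 perineurial markers at a median of 1.32% of theirs (1.05% to 28.5%); their part in the result was not tested.

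In perineurial cells the inward rectifiers Kcnj13 and Kcnj2 and the leak channel Kcnk5 were far higher at P60, and the leak channel Kcnk2 was far lower. Of 19 members tested, 14 were called, 5 higher and 9 lower, and of all 11497 genes 54.2% were called, 27.8% higher and 26.4% lower. The median change of the 19 was -0.32 on the log2 scale against 0.03 over all genes. Since the P1 class carried little of several perineurial markers, age, maturity and kind of these cells cannot be told apart. Of its 860 cells, 468 lay in a sub-cluster led by 1500015O10Rik and Osr1. Clec3b, one of the epineurial markers, was among the leading genes of that sub-cluster.

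Kcnj13, known from epithelia that move salt and water such as the pigment epithelium of the eye, was at 1.26, 0.926 and 0.370 CPM at P1 and at 327, 337 and 259 CPM at P60. That is 6 UMIs against 5048, with a log2 change of 8.51 ± 0.27 (edgeR adjusted p = 1.92e-10). The SE is derived from the test and does not cover the counting error of 6 UMIs. With cells thinned to 1500 UMIs, 0.116% of P1 and 35.6% of P60 perineurial cells had a Kcnj13 UMI, against 0% and 0.634% of immune cells. Unthinned, the P60 shares were 66.6% and 1.10%, at median depths by library of 4543 to 7698 UMIs in perineurial and 3547.5 to 3915 UMIs in immune cells. The gene lies at chr1:87386363-87394729 on the minus strand of GRCm38 (GENCODE M21) and overlaps Gigyf2 on the opposite strand. In P60 endothelial cells Kcnj13 was at 8.55, 10.9 and 6.80 CPM, and 56 of these 86 UMIs (65.1%) fell in a sub-cluster of 35 cells (2.04% of the class) led by Sfrp5, with Klf5, Cldn1 and Msln among its leading genes. Over the endothelial class the 9 perineurial markers stood at a median of 3.02% of their perineurial level (2.58% to 99.3%) and Kcnj13 at 2.85%; their part in the result was not tested. In P60 Schwann cells it was at 0, 50.3 and 4.66 CPM by library, so its level there rests on replicate 2.

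Kcnk2 in perineurial cells was at 339, 314 and 347 CPM at P1 and at 14.7, 19.0 and 18.8 CPM at P60 (-4.22 ± 0.14, edgeR adjusted p = 2.98e-10). The share of thinned cells with a UMI was 34.9% at P1 and 2.94% at P60. The 7 endoneurial markers stood in perineurial cells at a median of 20.1% of their endoneurial level at P1 (2.44% to 750%) and 2.71% at P60 (0.454% to 91.0%); their part in the result was not tested. Kcnk5 was at 1.26, 2.78 and 3.33 CPM at P1 and at 49.2, 39.4 and 40.1 CPM at P60 (4.12 ± 0.27, edgeR adjusted p = 7.73e-08). Kcnj2, a strong inward rectifier of muscle and endothelium, was at 2.52, 1.85 and 2.96 CPM against 34.9, 35.03 and 60.3 CPM (4.13 ± 0.32, edgeR adjusted p = 4.08e-07), and 3.41 with cells thinned. For each of these genes the ages did not overlap.

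The other perineurial changes were at lower levels. Kcnh2 was at 0.420, 1.85 and 0.370 CPM at P1 and at 6.15, 5.72 and 5.22 CPM at P60 (2.76 ± 0.47, edgeR adjusted p = 0.000312), from 6 UMIs at P1, and the change was 3.79 without P1 replicate 2. Kcnd3, a voltage-gated subunit of transient currents, was at 7.14, 10.7 and 7.02 CPM against 0.659, 2.09 and 1.81 CPM (-2.32 ± 0.38, edgeR adjusted p = 0.00021). Kcns3 was at 25.2, 27.8 and 30.7 CPM against 9.66, 7.26 and 6.12 CPM (-1.84 ± 0.21, edgeR adjusted p = 9.15e-06). The calcium-gated Kcnn1 (-1.92) and Kcnn4 (-1.71), Kcna1 (-1.73), the leak channel Kcnk6 (-1.37) and Kcna6 (-1.17) were also lower, and Kcne4 (0.93) was higher. Kcna1 in P1 perineurial cells stood at 1.88% of its Schwann level and the 8 Schwann markers at a median of 2.27% of theirs (1.13% to 16.3%); their part in the result was not tested. Leaving out P1 replicate 2 ended the calls of Kcna6 and Kcne4, leaving out P1 replicate 3 those of Kcna1 and Kcne4, and leaving out P60 replicate 2 that of Kcne4. When cells were scaled to a larger total before clustering, the change of Kcne4 turned to -0.16 (edgeR adjusted p = 0.718). With sub-clusters that carry markers of another class kept, the change of Kcna1 was -0.31 and its call was lost (edgeR adjusted p = 0.474), as was that of Kcna6 (edgeR adjusted p = 0.0805). The calls of Kcna6 and Kcne4 were also lost with DESeq2 (DESeq2 adjusted p = 0.0926 and 0.161).

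The P60 perineurial cells were not alike. Their 4 sub-clusters had Kcnj13 at 189, 219, 448 and 742 CPM. That at 219 CPM held 619 cells, of which 592 came from P60 replicate 3, and those at 189 and 448 CPM held 28 and 8 cells of that library, so these sub-clusters and the libraries cannot be told apart. The highest was in 427 cells with Pcp4l1 and Epyc among their leading genes, at 818, 835 and 564 CPM by library, which also carried the most Kcnk2 (48.9 CPM, against 7.67, 16.2 and 24.0 CPM in the others). In the same cells Kcnj2 was at 1.15 CPM and Kcnk5 at 5.76 CPM, where the other 3 sub-clusters had 39.4, 67.4 and 39.9 CPM of Kcnj2 and 45.6, 45.4 and 50.5 CPM of Kcnk5. Those 427 cells had a median of 3816 UMIs and 12.5% mitochondrial UMIs, against 5463 to 8512 UMIs and 3.46% to 5.13% in the others. Epyc was also among the leading genes of the P1 sub-cluster with the higher Kcnk2, at 471 CPM against 223 CPM in the P1 cells led by 1500015O10Rik and Osr1. These values describe clusters and were not tested.

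**Figure D3:**
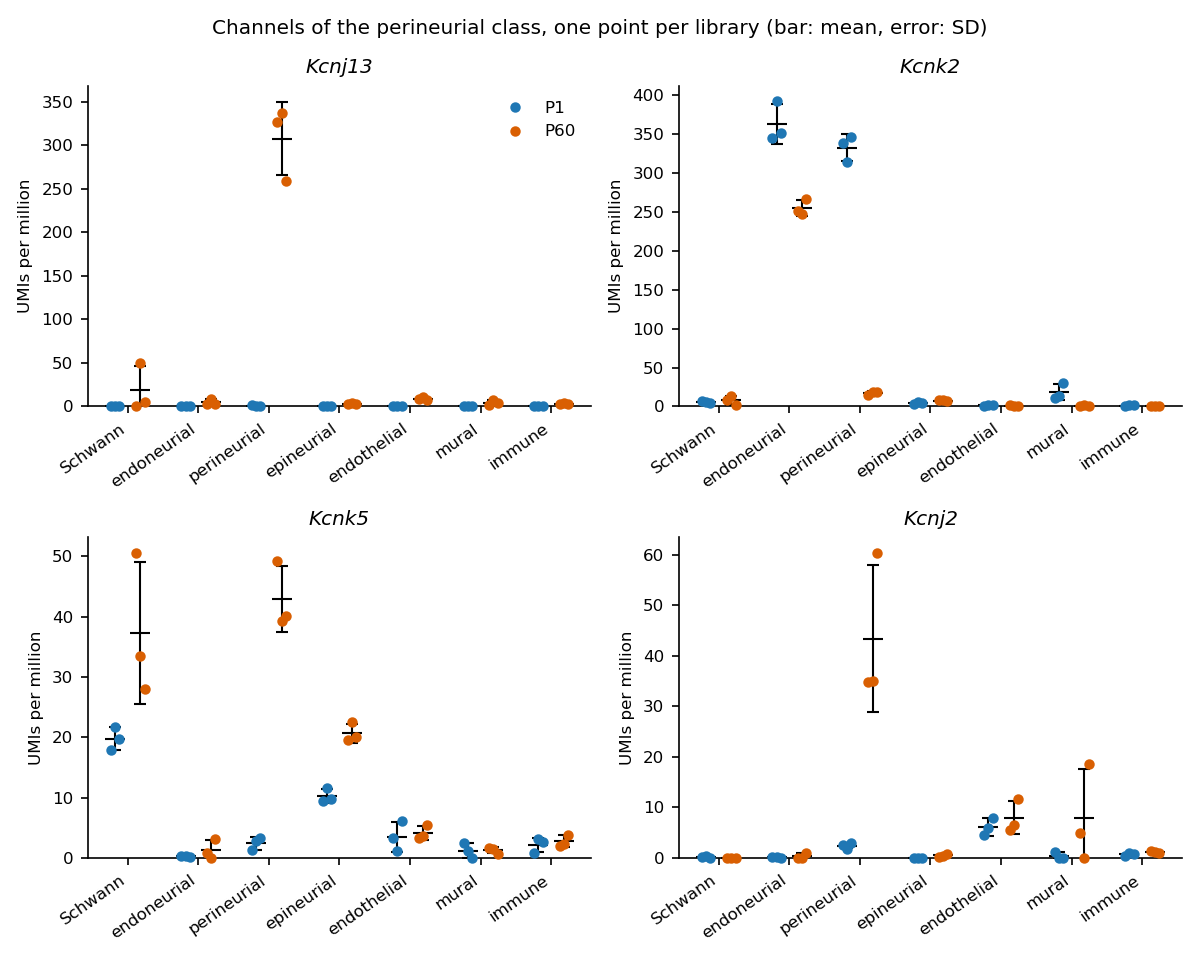
Levels of Kcnj13, Kcnk2, Kcnk5 and Kcnj2 in 7 cell classes at P1 and P60, in CPM, with a point for each library and the mean and SD of 3 libraries. In perineurial cells Kcnj13, Kcnk5 and Kcnj2 lie higher in all 3 P60 libraries than in all 3 P1 libraries, and Kcnk2 lies lower.

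In the vessel wall the voltage-gated subunit Kcna5, a channel of vascular smooth muscle, was lower at P60 in endothelial cells and higher in mural cells. In endothelial cells Kcna5 was at 72.8, 95.6 and 96.5 CPM at P1 and at 19.3, 13.0 and 22.7 CPM at P60 (-2.29 ± 0.20, edgeR adjusted p = 2.63e-06). In mural cells it was at 34.2, 37.9 and 38.2 CPM at P1 and at 187, 114 and 108 CPM at P60 (2.02 ± 0.22, edgeR adjusted p = 5.24e-05), a change of 2.61 when cells were scaled to a larger total before clustering. The ages overlapped in neither class. The endothelial change minus the mural change was -4.19 ± 0.24 on the log2 scale (edgeR adjusted p = 1.1e-12). Thinned to 1500 UMIs, the share of cells with a Kcna5 UMI was 12.4% and 3.58% in endothelial cells and 4.63% and 15.5% in mural cells at P1 and P60, against 0 of 939 and 0 of 1261 immune cells. Unthinned, the shares were 42.7% and 8.11% in endothelial and 14.4% and 30.1% in mural cells.

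In endothelial cells 5 of 8 members tested were called, 3 higher and 2 lower, against 39.5% of all 10492 genes, 20.8% higher and 18.7% lower. Kcna6 was at 7.87, 7.62 and 8.61 CPM at P1 and at 0.743, 1.04 and 1.62 CPM at P60 (-2.77 ± 0.38, edgeR adjusted p = 0.000121). At P1 it stood at 10.1% of its Schwann level, where the 8 Schwann markers were at 0.997% to 3.25% of theirs. The part of Schwann RNA in this level was not tested. Kcnn4, which hyperpolarises endothelium when calcium rises, was at 7.87, 8.21 and 8.61 CPM against 20.8, 15.9 and 11.98 CPM (0.96 ± 0.28, edgeR adjusted p = 0.0154). The call of Kcnn4 was lost without P1 replicate 1, P1 replicate 2 or P60 replicate 1, and its change was 0.27 when cells were scaled to a larger total before clustering. Kcnj13 went from 0 UMIs to 86, which makes P60 at least 14.5-fold higher, with most of them in the 35 cells named above. Kcnj2, Kcnk6 and Kcnq1 were not called.

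Within the endothelium the genes lay in different sub-clusters. Kcnn4 was at 22.4, 24.9 and 30.6 CPM in the P1 sub-cluster led by Gja4, a gene of arterial endothelium, and at 103, 96.5 and 95.5 CPM in the P60 sub-cluster led by Cytl1 with Gja4 among its leading genes. Kcnk5 was at 38.6, 0 and 69.4 CPM at P1 (9 UMIs in 36 cells) and at 45.3, 22.5 and 53.9 CPM at P60 (23 UMIs in 116 cells) in the cells led by the lymphatic gene Ccl21a, where Kcna5, Kcnn4 and Kcnj2 had no UMI at either age. Kcna5 at P60 was at 126, 112 and 156 CPM in the 167 cells led by Timp4, with Aqp7 and Lpl. At P1 Kcna5 was at 87.9, 117 and 116 CPM in the 416 cells led by Aplnr. In the 176 P1 cells led by Gja4 it was at 55.0, 66.9 and 67.7 CPM. The mix of endothelial sub-clusters and the level within each cannot be told apart in the changes of the whole class. A P60 cluster of 130 cells with Timp4, Aqp7 and the mural gene Rgs5 among its leading genes was left out of the class.

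In mural cells 8 of 10 members tested were called, 7 higher and 1 lower at P60, against 33.9% of all 7765 genes, 18.4% higher and 15.5% lower. The median change of the 10 was 1.88 on the log2 scale against 0.02 over all genes. Library size alone as the scale moved the median of all mural genes by -0.17. The genes that rose included both parts of the large-conductance calcium-gated channel of smooth muscle, the pore Kcnma1 and its auxiliary subunit Kcnmb1.

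Kcnma1 was at 2.44, 2.30 and 3.37 CPM at P1 and at 26.7, 23.2 and 42.3 CPM at P60 (3.69 ± 0.46, edgeR adjusted p = 0.000109). Kcnmb1 was at 8.55, 3.45 and 5.61 CPM against 66.7, 61.9 and 82.5 CPM (3.76 ± 0.34, edgeR adjusted p = 1.18e-05). Outside mural cells Kcnmb1 had no UMI at P1, and at P60 its highest mean was 0.124 CPM, in endothelial cells. It overlaps Kcnip1 on the opposite strand.

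Kcnj12, an inward rectifier, was at 7.33, 8.05 and 4.49 CPM at P1 against 50.01, 32.5 and 28.0 CPM at P60 (2.57 ± 0.35, edgeR adjusted p = 0.000203). The auxiliary subunit Kcne4 rose from 37.9, 73.6 and 32.5 CPM to 162, 132 and 138 CPM (1.74 ± 0.27, edgeR adjusted p = 0.000464). The beta subunit Kcnab1 rose from 51.3, 39.1 and 66.2 CPM to 158, 107 and 143 CPM (1.55 ± 0.23, edgeR adjusted p = 0.000364). Kcnb2, a voltage-gated subunit, had 56 UMIs at P1 (17.1, 25.3 and 22.4 CPM) and 0 at P60, at least 19.1-fold lower. The leak channel Kcnk3 was at 33.0, 36.8 and 34.8 CPM against 28.3, 30.9 and 34.4 CPM and was not called. Of its 502 UMIs in all kept cells, only 218 lay in the 7 classes. P60 clusters of 130, 87 and 51 cells with both endothelial and mural markers were put in no class. Kcnk3 was among the leading genes of the 87 cells, so its vessel-wall levels cover the classed cells only.

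Pericytes were 392 of the mural cells at P1 and 186 at P60, and vascular smooth muscle cells 148 and 528, so the mix differed between the ages. In smooth muscle cells alone 6 of 8 members tested were called, all higher at P60, against 34.6% of all genes. Among them Kcnmb1 changed by 3.35, Kcnma1 by 2.64, Kcnj12 by 2.37, Kcne4 by 2.20 and Kcna5 by 1.31 on the log2 scale. Kcnab1 was at 140, 119 and 205 CPM at P1 and at 209, 160 and 166 CPM at P60 in these cells, ranges that overlap (0.38, edgeR adjusted p = 0.205). In pericytes alone edgeR tested 2 members and called neither, against 25.9% of all genes, with Kcne4 at 0.69 and Kcnk3 at -0.96 (edgeR adjusted p = 0.149 and 0.124). Kcnb2 at P1 had 52 of its 56 mural UMIs in pericytes, at 23.7, 32.0 and 30.5 CPM. Pericytes held 618392 of the 2639769 mural UMIs of all genes at P60, against 1795861 of 2579629 at P1. The bound of 19.1-fold for Kcnb2 is thus for the mural class, and that for pericytes alone is lower.

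**Figure D4:**
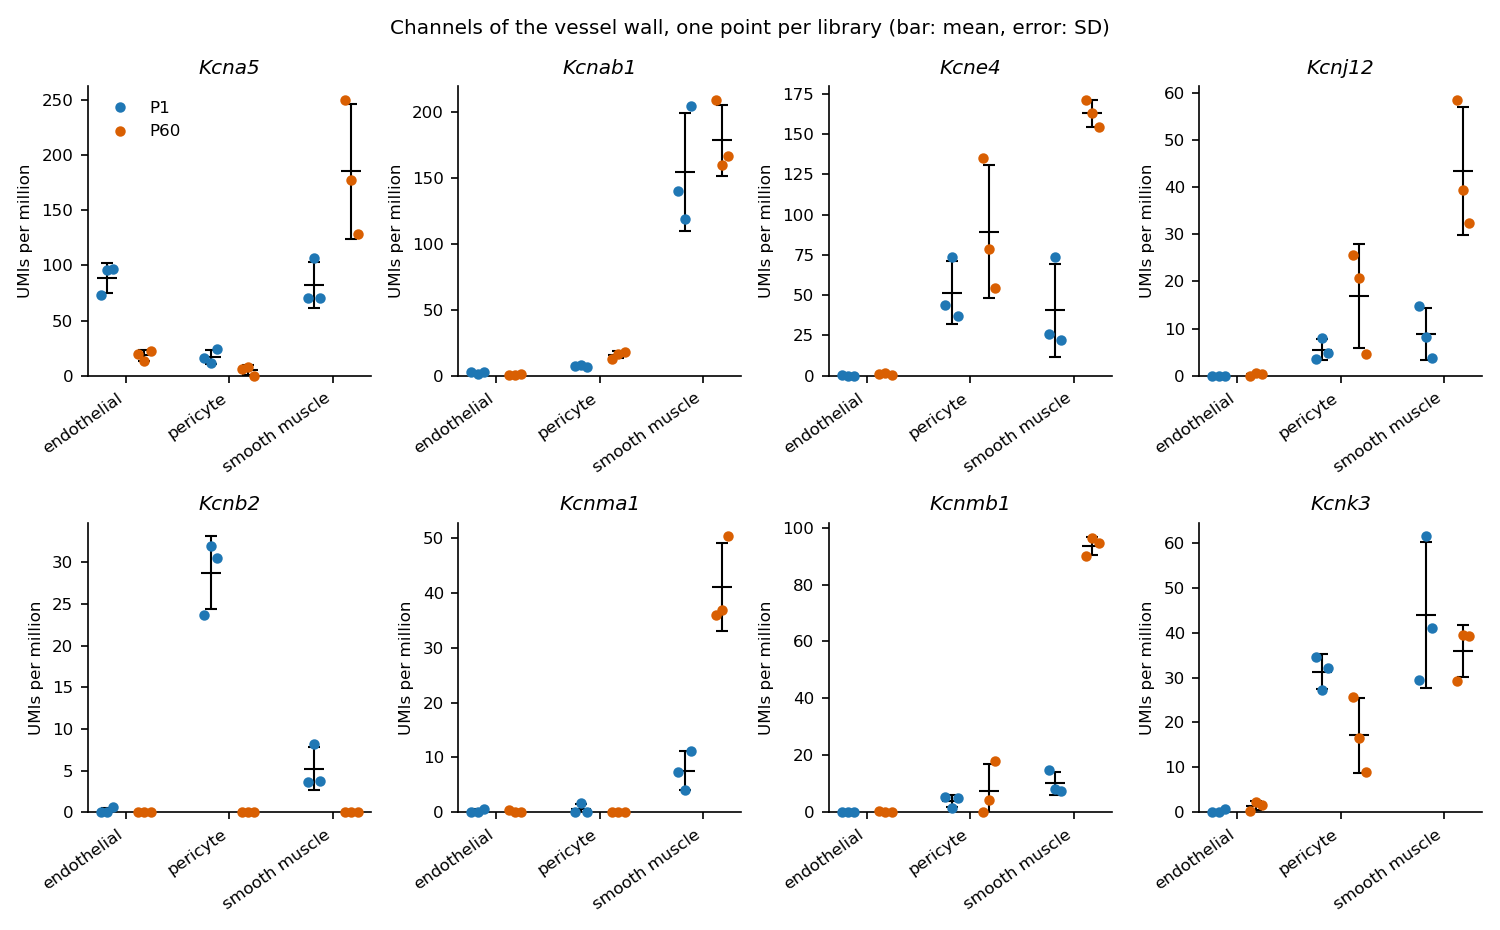
Levels of 8 potassium channel genes in endothelium, smooth muscle and pericytes of the vessels at P1 and P60, in CPM, with a point for each library and the mean and SD of 3 libraries. Kcna5 lies lower at P60 in endothelial cells and higher in smooth muscle cells, and Kcnmb1 lies high in P60 smooth muscle cells.

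In immune cells 3 of 6 members tested were called, all higher at P60, against 37.4% of all 9774 genes, 20.5% higher and 16.9% lower. Kcnn4, which keeps the voltage negative while calcium enters activated leukocytes, was at 25.8, 25.7 and 27.7 CPM at P1 and at 45.1, 39.5 and 36.8 CPM at P60 (0.69 ± 0.17, edgeR adjusted p = 0.0064). With cells thinned to 1500 UMIs its change was 0.82 and the call was lost (edgeR adjusted p = 0.0633), and Kcnk6 and Kcne3 did not then pass the filter on low counts. The leak channel Kcnk6 was at 9.87, 10.2 and 9.53 CPM against 22.2, 15.7 and 15.99 CPM (0.92 ± 0.24, edgeR adjusted p = 0.0087). The auxiliary subunit Kcne3 was at 1.29, 0.885 and 2.60 CPM against 14.8, 13.4 and 12.1 CPM (3.09 ± 0.37, edgeR adjusted p = 6.12e-05), and 2.50 with sub-clusters that carry markers of another class kept. Kcnk13 (28.4 and 30.6 CPM on average), the beta subunit Kcnab2 (23.0 and 27.3 CPM) and the calcium-binding subunit Kcnip3 (11.3 and 8.08 CPM) were not called (edgeR adjusted p = 0.431, 0.295 and 0.234).

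Immune cells are of several kinds, and the genes lay in different ones. At P60 Kcnn4 was at 114 CPM in 82 cells led by the lymphocyte genes Ccl5, Gzma and Nkg7, at 84.5 CPM in 342 cells led by Ear2 and Napsa, and at 2.82 CPM in 371 cells led by Cd209f. Kcne3 had 62 of its 70 P60 UMIs in the cells led by Ear2, at 40.6, 32.1 and 32.3 CPM by library, and Kcnq1 had 33 of its 41 there. Kcnk6 was at 33.1 CPM in the cells led by Cd209f and at 12.8 CPM in those led by Ear2. Kcnip3 was at 20.9 CPM in 442 P60 cells led by Ccl12, with Cx3cr1, and at 19.7 CPM in 456 P1 cells also led by Ccl12. The mix of these cells and the level within each kind cannot be told apart in the changes of the whole class.

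The age changes were also compared between classes. In 1 fit over all 7 classes with library as a block, 26 of 36 members tested had an age change that differed between classes, against 67% of all 14308 genes, a share near that of the members. The same difference was tested for each pair of classes in which a member was tested, an analysis added after the data were seen. Of 82 such pairs over 26 members, 48 were called, with 19.4% to 38.5% of all genes called by pair.

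Kcnk2 fell far more in perineurial than in endoneurial cells, a difference of 3.74 ± 0.12 on the log2 scale (edgeR adjusted p = 4.62e-38). Kcne4 rose in mural and fell in epineurial cells, an epineurial minus mural difference of -4.33 ± 0.25 (edgeR adjusted p = 6.01e-11), in a pair of classes in which 21.9% of all genes were called. Kcnk1 rose in Schwann and fell in epineurial cells (6.58 ± 0.62, edgeR adjusted p = 7.72e-17), where 29% of genes were called, and it rose more in Schwann than in endoneurial cells (1.85 ± 0.27, edgeR adjusted p = 3.58e-08), where 20.6% of genes were called. Kcnk13 changed more in Schwann than in immune cells, by 4.02 ± 0.57 (edgeR adjusted p = 1.39e-07), where 21.1% of genes were called. The Schwann minus endothelial difference of Kcna6 was 2.97 ± 0.46 (edgeR adjusted p = 2.47e-06), where 24.2% of genes were called. Kcnk2 differed between endoneurial and epineurial cells by -1.23 ± 0.25 (edgeR adjusted p = 9.00e-05), where 31% of genes were called. Kcnn4 differed between epineurial and immune cells by -1.29 ± 0.42 (edgeR adjusted p = 0.0204), where 30.4% of genes were called. The epineurial minus perineurial difference of Kcnk5 was -3.11 ± 0.34 (edgeR adjusted p = 1.41e-09), and the perineurial minus endothelial difference of Kcnj2 was 3.85 ± 0.44 (edgeR adjusted p = 1.16e-08). For Kcnh2, higher in Schwann and perineurial cells, the difference was -0.24 ± 0.60 (edgeR adjusted p = 0.81), where 31.7% of genes were called. The pairs of Kcnj13 gave no usable value, with SE of 1.51 and above, since its P1 counts were at or near 0.

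**Figure D5:**
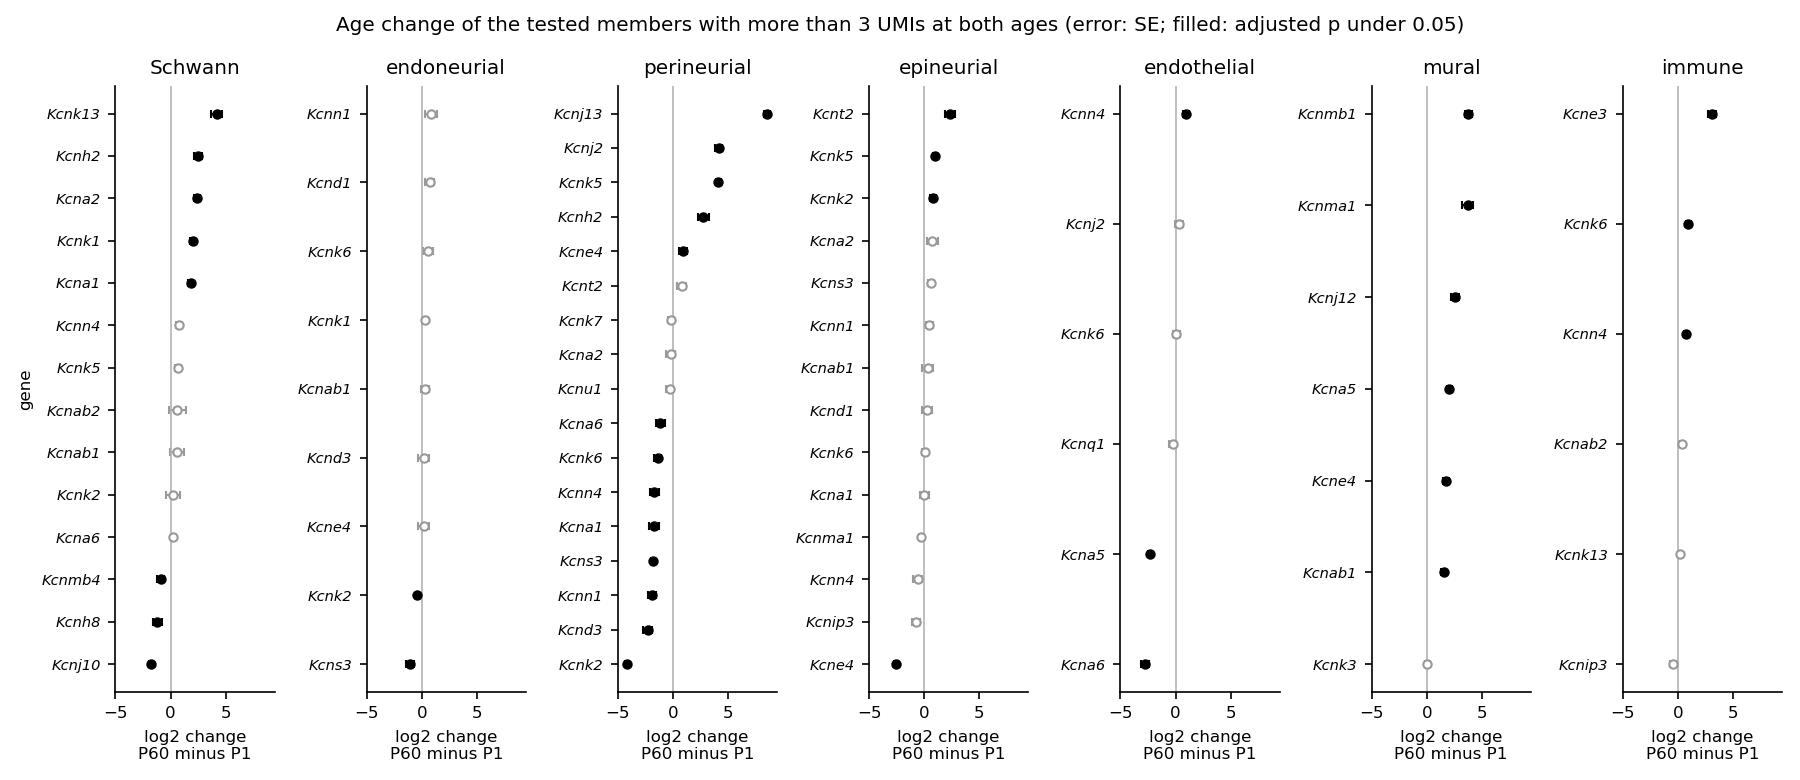
Log2 change from P1 to P60 of the same 37 potassium channel genes, where tested with more than 3 UMIs at both ages in a cell class. Bars give the SE derived from the edgeR F test, and filled points mark genes called at an adjusted p under 0.05. Among the called genes plotted, mural cells hold 6 above 0 and 0 below, and perineurial cells 5 above and 8 below.

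The remaining members were low. In Schwann cells Kcna4 was at 2.77 ± 0.827 CPM (SD, n = 3) at P1 and had 1 UMI at P60. In endoneurial cells Kcnd1 was at 3.75 ± 0.818 and 6.10 ± 2.23 CPM, and Kcns1 at 2.57 ± 0.425 CPM at P1. In perineurial cells the tandem-pore gene Kcnk7 was at 6.26 ± 1.02 and 5.45 ± 0.438 CPM, and Kcnu1 at 3.54 ± 1.16 and 2.87 ± 0.437 CPM. In endothelial cells the voltage-gated Kcnq1 was at 6.65 ± 1.68 and 5.61 ± 1.93 CPM. Kcnk2, Kcnab1, Kcnab2, Kcnip3, Kcnt2, Kcnq1, Kcnd3 and Kcnb2, 8 of the 40, overlap another gene on the same strand in GENCODE M21. Strand cannot separate such reads, so their counts are uncertain to that extent. Whether counting used the strand is not given in the sources used here. That bears on genes with an overlap on the opposite strand, such as Kcnj13 and Kcnmb1.

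Other genes of potassium handling were described from 4 lists. Of 13 genes of the sodium-potassium pump and its FXYD regulators, which carry potassium back into cells, 8 of 11 tested were higher and 0 lower in Schwann cells (median change 1.18 on the log2 scale, against -0.08 over all genes), where 18.4% of all genes were higher and 21.8% lower. In immune cells 7 of 8 were higher and 0 lower (1.64 against 0.03), against 20.5% and 16.9% of all genes. In endothelial cells 5 of 7 were higher and 0 lower (1.04 against 0.01), against 20.8% and 18.7%, and in mural cells 5 of 7 and 0 (1.13 against 0.02), against 18.4% and 15.5%. In perineurial cells 6 were higher and 4 lower of 11 (1.12 against 0.03), against 27.8% and 26.4% of all genes. In endoneurial cells 5 were higher and 3 lower of 10 (0.47 against 0.02), against 23.7% and 22.4%, and in epineurial cells 5 and 2 of 9 (0.49 against 0.03), against 23.1% and 20.7%. The pump subunit Atp1b2 rose in Schwann cells from 6.70, 6.31 and 5.42 CPM to 121, 134 and 124 CPM (4.19 ± 0.20, edgeR adjusted p = 8.62e-10). The regulator Fxyd7 fell in perineurial cells from 70.1, 68.1 and 62.4 CPM to 1.32, 1.12 and 0 CPM (-6.20 ± 0.34, edgeR adjusted p = 1.92e-08).

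Of 9 cation-chloride cotransporters, which move potassium together with chloride, 4 of 5 tested in perineurial cells were higher and 0 lower (median 1.18 against 0.03), where 27.8% and 26.4% of all genes were, with Slc12a7 at 2.62 ± 0.29 and Slc12a2 at 2.00 ± 0.23. In the other classes 0 to 2 were higher and 0 lower of 3 to 6 tested, where 18.4% to 23.7% of all genes were higher and 15.5% to 22.4% lower. Of 19 partner subunits without a Kcn name, 3 of 6 were higher and 0 lower in Schwann cells (1.27 against -0.08; 18.4% and 21.8% of all genes), among them Amigo1, a partner of voltage-gated channels (3.55 ± 0.55), and 0 of 8 higher and 3 lower in perineurial cells (-0.44 against 0.03; 27.8% and 26.4% of all genes). In the other classes 0 to 2 partners were higher and 0 to 2 lower of 1 to 9 tested, against the same ranges of all genes. Of 20 connexins, which form the gap junctions through which potassium passes between cells, 2 were higher and 4 lower of 7 in perineurial cells (-1.89 against 0.03; 27.8% and 26.4% of all genes), with Gja1 at 2.43 ± 0.19. In endothelial cells 1 was higher and 3 lower of 5 (-0.51 against 0.01, with 20.8% and 18.7% of all genes), with Gja4 at -2.60 ± 0.13. The sub-clusters with Gja4 among their leading genes held 176 of 628 endothelial cells at P1 and 135 of 1713 at P60. Their share and the level of Gja4 within them cannot be told apart in that change. In the other classes 0 to 2 connexins were higher and 1 to 2 lower of 1 to 4 tested. There 18.4% to 23.7% of all genes were higher and 15.5% to 22.4% lower.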

How the data were processed

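RNA of single cells from mouse sciatic nerve was read with the 10x Chromium v2 kit. The authors deposited raw UMI counts per gene and barcode, made with Cell Ranger 2.0.2, and the submitters' processing notes name build GRCm38.p5. The study's methods name a human build instead. The study's own cell list numbers the P60 libraries differently, so replicate numbers here are those of the labels. Cells with 500 to 5000 genes were clustered at each age with Seurat 5.3.0 (total 10000, 10 principal components, 30 neighbours, resolution 0.5 at P1 and 0.4 at P60), with the potassium channel genes removed from the variable genes. Clusters were named from marker genes, and sub-clusters with 5 or more markers of another class were left out. P1 clusters of 952, 705 and 597 cells got no name and were left out too. So were P60 clusters of 130, 87 and 51 cells that held endothelial and mural markers together. The cells left out thus differed between the ages. Of 11216 Kcnk2 UMIs in all kept cells, 8352 lay in the 7 classes. Doublets were kept in the main fits, and leaving out those marked by Scrublet (2.74% to 3.67% of a library) was an alternative. UMIs were summed per class and library and tested between the ages with edgeR 4.0.16 (quasi-likelihood test, TMM, filterByExpr, Benjamini-Hochberg over all genes tested). The SE of a log2 change is its absolute value divided by the square root of the F of that test. It can be smaller than the counting error where an age has few UMIs. The scripts were tested on simulated counts. DESeq2 1.42.0, other scalings, filters and clusterings, thinning to 1500 UMIs and leaving out each library were alternatives. The members, gene lists and tests were chosen with earlier results of these data known. Values in every library are given, for each class, for the called members, up to the 6 with the largest change, and for the member with the highest level, and further members were named after their values were seen. Some genes that enter the counts are not reported here by name. Intervals are exact 95% intervals and, like the floor of 3 counts, cover counting error only.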

Additional observations from a re-analysis of the deposited data

Results flagged for a closer look

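For 25 of the 35 described potassium channel genes tested, the change from P1 to P60 differed between the 7 cell classes. This was the interaction test of edgeR (F test, adjusted over all genes tested). It called 67% of all genes, a share near that of the described genes. For Kcne3, Kcnq1, Kcnk7, Kcnma1, Kcnj2, Kcnd3, Kcnj12 and Kcnk13 the contrast of a class with the other classes gave no usable SE in most classes. Several other genes, such as Kcnmb4, lacked a usable SE in some classes. The adjusted p of the edgeR fit was 1.07e-27 for Kcnk2, 8.08e-16 for Kcne4, 1.12e-15 for Kcna5, 1.70e-14 for Kcnk1, 5.26e-12 for Kcns3 and 1.13e-10 for Kcnk5. It was 5.15e-07 for Kcna1, 1.03e-06 for Kcnj2, 3.61e-06 for Kcnk13, 5.05e-06 for Kcne3, 6.28e-06 for Kcnn4, 1.36e-05 for Kcnq1, 2.11e-05 for Kcna6, 2.99e-05 for Kcnk6, 4.01e-05 for Kcnma1 and 5.85e-05 for Kcnab1 in the same edgeR fit. The edgeR adjusted p was also 0.00119 for Kcna2, 0.00189 for Kcnj10, 0.00555 for Kcnd3, 0.00890 for Kcnn1, 0.0107 for Kcnj12, 0.0209 for Kcnk7 and 0.0415 for Kcnmb4.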

How the results depend on the processing

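A named gene called in the main fit counted as unchanged under an alternative if it kept its direction and its call. One not called in the main fit counted as unchanged even with the opposite sign. Alternatives in which a gene was not tested were not counted. Of the values under the alternatives planned, 602 were unchanged, 50 kept the direction but lost the call and 1 turned. Under alternatives added after seeing the data these counts were 59, 6 and 1. Those that turned were Kcne4 in perineurial cells with cells scaled to a larger total before clustering (-0.16, edgeR adjusted p = 0.718) and Kcnmb4 in Schwann cells on the myelinating side alone (0.66, edgeR adjusted p = 0.283); the cause was not tested. With no filter on low counts the members called numbered 16 in mural, 14 in epineurial, 13 in endoneurial, 11 in endothelial and 5 in immune cells. With cells thinned to 1500 UMIs, which leaves fewer genes to test, they were 3 in epineurial (4 tested), 5 in perineurial (5 tested), 1 in endothelial (1 tested) and 5 in mural cells (5 tested), and 10 members differed between classes. Thinned, edgeR called 0 of 1 in endoneurial and 0 of 3 in immune cells, with 1 in each at an unadjusted p under 0.05, and DESeq2 was not run on these. Keeping sub-clusters with markers of another class gave 8 in endothelial and 5 in immune cells, and ended the call of Kcna1 in perineurial cells (-0.31, edgeR adjusted p = 0.474). The myelinating side alone gave 5 members called and pericytes alone 0 by edgeR (1 at an unadjusted p under 0.05). Leaving out 1 library gave 7 to 8 members called in Schwann, 1 to 7 in endoneurial, 5 to 8 in epineurial, 12 to 16 in perineurial, 9 to 10 in mural, 4 to 5 in endothelial and 3 to 4 in immune cells, and 23 to 26 that differed between classes. The endoneurial count was 1 without P1 replicate 1 or P1 replicate 3 and 7 without P60 replicate 3. With a replicate block the counts were 9 in Schwann, 3 in endoneurial, 7 in epineurial, 13 in perineurial, 8 in mural, 5 in endothelial and 3 in immune cells, and 25 between classes. The block rests on shared numbers alone: same-numbered libraries correlated at -0.036 to 0.079 in their deviations, with 0 of 21 values over 0.1. The 367 Schwann cells of P60 limit low genes most, since 3 counts there are 3.05 CPM.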
